A study of Mus musculus with 6 samples.

Results

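The 36 genes described here are 22 glutathione transferases and 14 genes of the NRF2 antioxidant programme, among 54532 genes counted in mouse liver. They were taken by symbol from the count table, and all 36 symbols were found there. The transferases were parted by class into alpha (4 genes), mu (7), pi (2), theta (3), a group of 3 single genes of classes kappa, omega and zeta, and microsomal (3). The other members were 8 NRF2 targets, NRF2 itself (Nfe2l2) with its inhibitor Keap1, and 4 peroxide and superoxide enzymes.

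Livers came from male Trem2-deficient mice (Trem2-/-, labelled KO, libraries 4, 5 and 6) and from male littermate wild-type mice (labelled WT, libraries 1, 2 and 3). The diet was high-fat in both groups, a feeding that makes the liver fatty in mice, and lasted 8 weeks from an age of 8 weeks. Whole frozen liver was used, so hepatocytes and all other liver cells were measured together. Trem2 encodes a macrophage receptor for lipids and lipoproteins; the sources used here do not describe the allele or its deleted part. Nothing in the labels ties a library to an animal, so the spread behind each p-value may be technical.

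Glutathione transferases join glutathione to reactive compounds, among them drug metabolites and products of lipid peroxidation, and the liver is a main site of this work. NRF2 is a transcription factor that KEAP1 holds back in unstressed cells; oxidants release it, and it then raises genes for glutathione synthesis, thiol repair and conjugation through DNA sites called antioxidant response elements. Many, but not all, transferase genes carry such elements in mouse, and several also answer to other nuclear receptors or differ between male and female liver.

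Library totals ran from 11591021 (KO 4) to 20399361 counts (WT 3), and each value below is a count scaled to a common total (CPM) unless FPKM, the authors' length-scaled unit, is named. Trem2 itself had 9, 6 and 5 counts in KO libraries 4, 5 and 6 and 7, 26 and 26 counts in WT libraries 1, 2 and 3, so the library labelled WT 1 was not set apart from the KO libraries by this gene. Mitochondrially encoded genes took 28% of the counts in KO 4, 19.8% in KO 6 and 9.08% in KO 5, against 8.16% in WT 1, 12.7% in WT 2 and 10.2% in WT 3. The hepatocyte marker list was present in every library, at a summed 78274 to 82125 CPM in KO and 77348 to 109229 CPM in WT livers (9 of 10 markers in the table, none at 0), with 1 of 9 fitted higher and 8 lower. Kupffer cell and macrophage markers summed to 257 to 330 CPM in KO and 145 to 196 CPM in WT livers, with all 12 fitted higher, and sinusoidal endothelial markers to 323 to 486 CPM in KO and 218 to 272 CPM in WT livers, with all 10 fitted higher. Stellate cell markers summed to 206 to 471 CPM in KO and 187 to 200.4 CPM in WT livers, with 7 of 10 fitted higher. Pericentral hepatocyte markers, the zone where several transferases are most abundant, summed to 6381 to 9751 CPM in KO and 8431 to 17444 CPM in WT livers, with 2 of 10 fitted higher. Periportal hepatocyte markers summed to 3824 to 5833 CPM in KO and 4012 to 9211 CPM in WT livers, with 0 of 10 fitted higher, and the median log2 change was −0.67 for the periportal and −0.18 for the pericentral list. None of these markers passed the test, and no list had a marker at 0 in all libraries. Macrophages and endothelium also express several of the genes below, and the part of these cells in the differences was not tested. In bulk liver, fewer cells of a type and less RNA per cell cannot be told apart.

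None of the members passed the test between KO and WT livers. In edgeR's quasi-likelihood test, adjusted over 13693 genes, 0 of the 34 members tested had an adjusted p under 0.05, where 0.0146% of all tested genes did. An unadjusted p under 0.05 was found for 4 higher members (Gsta1, Gstm2, Gstm3 and Srxn1), beside 5.37% of all tested genes, and 3 lower members (Gstp1, Gstp2 and Gstt3), beside 3.21%. Together the 7 were 20.6% of the 34, against 8.58% of all tested genes. The groups did not overlap in 5 members as higher, beside 8.12% of all tested genes, and in 4 as lower, beside 5.73%. Together these 9 are 26.5% of the 34 beside 13.9% of all tested genes. Without the libraries WT 1 and KO 4 together, 3 members instead of 7 had an unadjusted p under 0.05. DESeq2 called 2 members, in a test that called 1.14% of its genes. With sample quality weights limma-voom called 17 of the 34 members, beside 4063 of all 13693 tested genes.

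The transferases held most of these members. Of 21 transferases tested, 6 had an unadjusted p under 0.05 (28.6%), and of the 13 other members 1 did (7.69%). The median size of the log2 change, sign left out, was 0.48 for transferases and 0.29 for the other members, beside 0.30 for all tested genes. Signed medians were near 0 in both, at −0.02 for transferases and 0.04 for the other members, beside −0.01 for all tested genes. Transferase genes thus lay further from 0 in both directions while their sum stayed level: it was 7224, 7924 and 8446 CPM in KO livers 4, 5 and 6, against 8830, 7517 and 8392 CPM in WT livers 1, 2 and 3. These are descriptions of the 34 genes, and the difference between the 2 groups of genes was not tested. The 6 transferases include Gsta1 and Gstp2, whose reads are hard to tell from those of close copies. Summed with its copies, Gsta1 had a log2 change of 0.05. Mgst1 alone made up 3147 to 4064 CPM of the transferase sum, so that sum says little about the smaller classes.

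**Figure D1:**
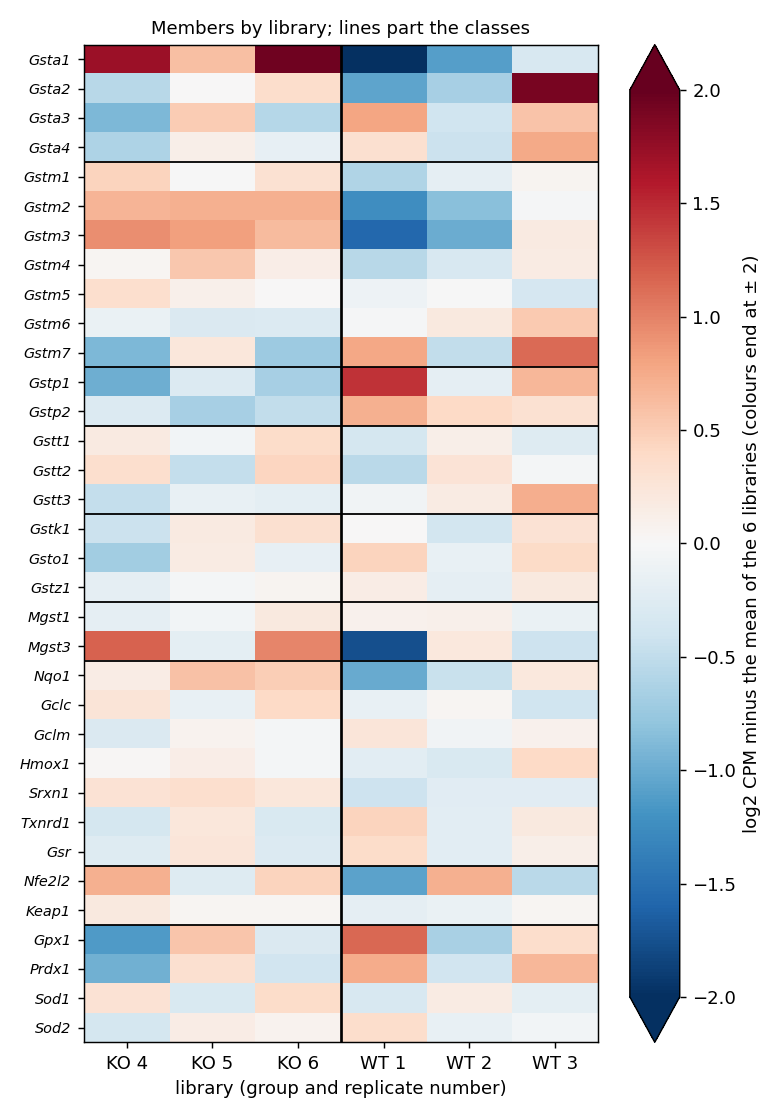
Level of each of the 34 tested members in the 6 libraries, KO left of WT, as log2 CPM minus the member's own mean over the 6 libraries; colour gives the deviation and lines part the classes. Gstm2 and Gstm3 are above their mean in all 3 KO libraries, Gstp2 is below its mean in all 3, and Gpx1, Prdx1 and Gsta3 differ more between libraries of a group than between groups.

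The microsomal class took the largest part of the transferase mRNA in each of the 6 libraries by FPKM, from 35.1% to 47.5%, and Mgst1 was its main gene. Mgst1, an enzyme of the endoplasmic reticulum and outer mitochondrial membrane that conjugates and reduces lipid peroxides, averaged 1725 ± 238 FPKM in KO and 1795 ± 183 FPKM in WT livers (SD, n = 3 each). Gstm1 was next over all 6 libraries, at 885 ± 145 FPKM in KO and 653 ± 131 FPKM in WT livers. Gstp1 averaged 400 ± 94.2 FPKM in KO livers, against 1092 ± 610 FPKM in WT livers, where WT 1 alone stood at 1751 FPKM. By group mean Gstm1 stood above Gstp1 in KO livers and below it in WT livers. Gstt1, Gsta3, Gstz1 and Gstk1 came next, with means over the 6 libraries of 299, 194, 122 and 114 FPKM.

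Class pi held a smaller share of the transferase FPKM in KO livers and class mu a larger one. Class pi here is the members Gstp1 and Gstp2, without Gstp3. Gstp3 averaged 43.5 ± 5.16 FPKM in KO and 37.9 ± 6.29 FPKM in WT livers (SD, n = 3 each). Class mu made up 32.3%, 24.4% and 25.7% in KO livers 4, 5 and 6, against 12.6%, 20.2% and 22.4% in WT livers 1, 2 and 3. Class pi made up 8.09%, 12.5% and 8.69% in KO livers, against 33.2%, 13.8% and 21.4% in WT livers. The groups did not overlap in the share of either class, though WT 2 and KO 5 lay close together for class pi. The level of class mu did overlap, at 1260, 983 and 1154 FPKM in KO livers 4, 5 and 6, against 668, 813 and 1026 FPKM in WT livers 1, 2 and 3. A share of mu also rises when pi, a part of the same total, is lower. The ratio of mu to pi FPKM within a library, which no library scaling can change, was 3.99, 1.96 and 2.96 in KO livers and 0.380, 1.47 and 1.05 in WT livers. Microsomal transferases took 42.9% ± 2.55 in KO and 39.7% ± 6.77 in WT livers, theta took 8.7% ± 1.08 in KO and 6.67% ± 1.97 in WT livers, and alpha took 4.91% ± 2.12 in KO and 6.34% ± 1.98 in WT livers (SD, n = 3 each). The groups overlapped for these 3 classes.

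**Figure D2:**
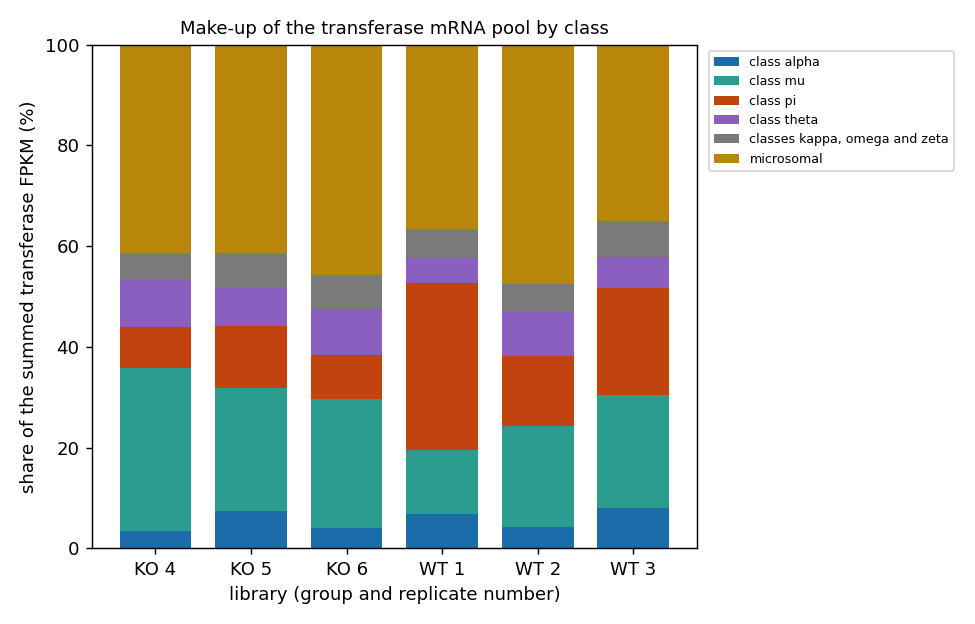
Share of the summed transferase FPKM (%, from 0 to 100) taken by each class in each library, KO left of WT. Class pi (Gstp1 and Gstp2) ranges from 8.09% to 12.5% in the KO libraries and from 13.8% to 33.2% in the WT libraries. Class mu ranges from 24.4% to 32.3% in the KO libraries and from 12.6% to 22.4% in the WT libraries.

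Among class alpha genes Gsta1 stood apart from the other 3. Gsta1, an inducible alpha transferase (ENSMUSG00000074183, mm10 chromosome 9, 78230656 to 78242684), had 11.5, 5.23 and 13.5 CPM in KO livers 4, 5 and 6, against 0.374, 1.54 and 2.72 CPM in WT livers 1, 2 and 3. Every KO library lay above every WT library, and the lowest value, in WT 1, rests on 6 counts. The fitted log2 change was 2.68 (SE 0.65), with an unadjusted p of 0.00351 and an edgeR adjusted p of 0.391. The Gsta1 log2 change was 3.37 without WT 3, 1.94 with the mitochondrial share in the model and 1.99 with 1 surrogate variable. An exact two-sided permutation test gave p = 0.1, the smallest it can give with 3 libraries a group and the value of each member whose groups do not overlap. DESeq2 did call Gsta1 (adjusted p = 0.00435, in a test that called 1.14% of its genes, 0.717% as higher and 0.426% as lower), and over all alternatives its adjusted p ran from 0.00435 to 1.

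Gsta2, its neighbour on the same chromosome, did not show this. It had 10.3, 15.1 and 19.4 CPM in KO livers, against 7.23, 9.48 and 56.8 CPM in WT livers (log2 −0.72, SE 0.74). The WT 3 library alone was high, and without it the log2 change was 0.81. Gsta1 and Gsta2 transcripts are close copies: 90.5% of the 50-base stretches of Gsta1 transcripts in the GENCODE annotation also occur in another gene, mostly in Gm3776 (75.7%) and Gsta2 (46.6%). Gm3776 had 34, 47 and 51 counts in KO livers and 1, 8 and 42 counts in WT livers, and in CPM its libraries stood in the same order as those of Gsta1. Reads may therefore have been placed on the wrong copy, or left out, and the value of each copy is uncertain. The counts of Gsta1, Gsta2, Gm3776 and Gm10639 summed to 274, 487 and 554 in KO livers and 123, 181 and 1267 in WT livers, a log2 change of 0.05 (SE 0.71, edgeR adjusted p = 0.983). The sum was highest in WT 3 and lowest in WT 1, and its groups overlapped.

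The upstream sequences of this pair are shown because the genes differed in order over the libraries while their transcripts are alike. They run from 250 bases before to 50 after the RefSeq gene start (GRCm38.p6, the build called mm10), 5′ to 3′ on the gene's strand. For Gsta2 this start lies inside the counted gene (78331018 to 78355788) and not at its 5′ end. In an alignment of both sequences 75.3% of the positions are identical. No stretch is in capitals, since neither holds the antioxidant response element core searched for below.
Gsta1 (chr9:78230419-78230718, plus strand): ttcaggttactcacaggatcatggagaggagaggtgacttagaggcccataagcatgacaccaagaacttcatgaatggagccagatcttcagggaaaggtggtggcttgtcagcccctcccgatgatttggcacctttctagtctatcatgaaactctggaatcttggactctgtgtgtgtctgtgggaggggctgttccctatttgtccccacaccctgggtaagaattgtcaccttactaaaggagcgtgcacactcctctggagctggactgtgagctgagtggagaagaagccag
Gsta2 (chr9:78347096-78347395, minus strand): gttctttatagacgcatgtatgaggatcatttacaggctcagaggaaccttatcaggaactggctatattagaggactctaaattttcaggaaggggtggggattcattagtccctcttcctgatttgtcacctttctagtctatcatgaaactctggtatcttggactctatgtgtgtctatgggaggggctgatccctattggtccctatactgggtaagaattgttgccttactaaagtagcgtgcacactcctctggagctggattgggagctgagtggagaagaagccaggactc

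Gsta3, the abundant constitutive alpha transferase that detoxifies the aflatoxin epoxide in mouse, had 412, 1091 and 520 CPM in KO livers, against 1330, 582 and 1147 CPM in WT livers. KO 5 was high and WT 2 low, so the groups overlapped widely (log2 −0.60, SE 0.45, edgeR adjusted p = 0.689). Gsta4, which conjugates hydroxynonenal from oxidised lipids, had 26.4, 44.4 and 36.6 CPM in KO livers, against 51, 30.4 and 69 CPM in WT livers (log2 −0.48, SE 0.33). Its groups overlapped as well, again with WT 2 among the low libraries.

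The fitted signs of the mu genes differed along their cluster on chromosome 3. All 7 lie within 149 kb, in the order Gstm5, Gstm7, Gstm6, Gstm3, Gstm2, Gstm1 and Gstm4. Fitted log2 changes in that order were 0.29, −0.99, −0.48, 1.41, 1.31, 0.47 and 0.46. The 4 genes from Gstm3 to Gstm4 had positive values and the pair before them negative ones. The groups overlapped for Gstm7, Gstm1 and Gstm4, and the order along the cluster was not tested.

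Gstm2 (ENSMUSG00000040562, chromosome 3, 107981702 to 107986453) had nearly the same level in the 3 KO livers. It had 161, 163 and 164 CPM there, against 42.3, 56 and 98.3 CPM in WT livers. The KO mean was 163 ± 1.61 CPM and the WT mean 65.5 ± 29.2 CPM (SD, n = 3 each), so the spread lay in the WT livers. The fitted log2 change was 1.31 (SE 0.32), with an edgeR adjusted p of 0.391. DESeq2 called it at an adjusted p of 0.0257, and over all alternatives the adjusted p ran from 0.0257 to 1.

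Gstm3 (ENSMUSG00000004038, chromosome 3, 107963696 to 107969283), the neighbour of Gstm2, had 87.5, 81.2 and 71 CPM in KO livers, against 15.3, 23 and 51.6 CPM in WT livers. The groups did not overlap, and WT 1 was lowest and WT 3 highest of the WT libraries, as for Gstm2 (log2 1.41, SE 0.42, edgeR adjusted p = 0.422). Of the 50-base stretches of Gstm3 transcripts, 28.8% occur in another gene, against 5.65% for Gstm2. Without WT 3 the log2 changes of Gstm2 and Gstm3 were 1.70 and 2.03, and without WT 1 they were 1.07 and 1.09.

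Their promoters are shown because these neighbours differed most between the groups within the cluster. An alignment of both has 50.8% identical positions, and among the other pairs of the 6 mu genes on the minus strand this share ran from 48.3% to 53.3%. Coordinates are GRCm38.p6, and neither sequence holds the element core searched for below.
Gstm2 (chr3:107986371-107986670, minus strand): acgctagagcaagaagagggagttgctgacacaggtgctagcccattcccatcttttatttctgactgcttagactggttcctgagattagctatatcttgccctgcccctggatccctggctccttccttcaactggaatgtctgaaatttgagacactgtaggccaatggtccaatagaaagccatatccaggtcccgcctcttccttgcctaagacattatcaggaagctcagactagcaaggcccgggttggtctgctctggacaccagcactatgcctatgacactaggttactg
Gstm3 (chr3:107969125-107969424, minus strand): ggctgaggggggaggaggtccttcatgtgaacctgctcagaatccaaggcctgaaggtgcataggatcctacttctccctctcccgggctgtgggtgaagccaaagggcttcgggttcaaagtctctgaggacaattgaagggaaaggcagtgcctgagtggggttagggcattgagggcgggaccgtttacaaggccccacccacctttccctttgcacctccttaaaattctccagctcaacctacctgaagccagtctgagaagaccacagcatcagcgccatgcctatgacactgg

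The other mu genes differed less. Gstm1, the main mu transferase of mouse liver, had 1509, 1104 and 1369 CPM in KO livers, against 736, 984 and 1158 CPM in WT livers, where WT 3 reached into the KO range (log2 0.47, SE 0.27). Gstm4 had 34.7, 48.8 and 36.8 CPM in KO livers, against 22.8, 27 and 37.7 CPM in WT livers (log2 0.46, SE 0.25). Gstm5 had 11.6, 9.91 and 9.26 CPM in KO livers, against 8.6, 9.22 and 7.29 CPM in WT livers, groups that just did not overlap (log2 0.29, SE 0.22). An antisense gene, 4933431E20Rik, overlaps Gstm5 and had 192 counts over the 6 libraries against 915 for Gstm5, and reads of the 2 cannot be told apart if strand was not used in counting. Gstm6 had 103, 92.2 and 93.5 CPM in KO livers and lay below all WT livers, at 110, 128 and 162 CPM (log2 −0.48, SE 0.22). Gstm7 had 16.5, 36.4 and 18.6 CPM in KO livers, against 52.9, 21.9 and 67.8 CPM in WT livers, with WT 2 inside the KO range (log2 −0.99, SE 0.46). With the mitochondrial share in the model the Gstm7 value was −0.40. The edgeR adjusted p of these 5 ran from 0.605 to 0.686.

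Both pi genes among the members were lower in every KO liver than in any WT liver. Gstp3, another pi gene on chromosome 19 that is not a member, did not show this. It had 35.2, 31.4 and 27.7 CPM in KO livers, against 25.9, 22.7 and 31.7 CPM in WT livers (log2 0.23, SE 0.21). Its groups overlapped. Gstp1 (ENSMUSG00000060803, chromosome 19, 4035407 to 4037921), the pi transferase that is known to be more abundant in male than in female mouse liver, had 240, 390 and 297 CPM in KO livers, against 1281, 418 and 745 CPM in WT livers. The gap between KO 5 and WT 2 was small, and WT 1 stood highest of all. The fitted log2 change was −1.40 (SE 0.42, edgeR adjusted p = 0.431), and −0.91 without WT 1. With 1 surrogate variable in the model it was −0.72, the value nearest to 0 of all alternatives run.

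Gstp2 had 2.45, 1.85 and 2.1 CPM in KO livers, against 4.99, 3.97 and 3.74 CPM in WT livers (log2 −0.99, SE 0.31, edgeR adjusted p = 0.437). Gstp1 and Gstp2 lie within 6.83 kb, and 54.3% of the 50-base stretches of Gstp2 occur elsewhere, mainly in Gstp1. The few reads of Gstp2 may therefore partly come from Gstp1. Counts of Gstp1, Gstp2 and the pseudogene Gstp-ps summed to 3454, 9535 and 5764 in KO livers and 23101, 7739 and 17674 in WT livers, with a log2 change of −1.30 (SE 0.39, edgeR adjusted p = 0.435). The sum thus had the same direction as each gene. The Gstp1 promoter is shown because the class pi members had the largest negative median of the classes, −1.19, beside −0.01 for all tested genes. It is without a match to TGACNNNGC, the element core searched for below, but holds TGAGTCAGC, a form that was not searched.
Gstp1 (chr19:4037863-4038162, minus strand): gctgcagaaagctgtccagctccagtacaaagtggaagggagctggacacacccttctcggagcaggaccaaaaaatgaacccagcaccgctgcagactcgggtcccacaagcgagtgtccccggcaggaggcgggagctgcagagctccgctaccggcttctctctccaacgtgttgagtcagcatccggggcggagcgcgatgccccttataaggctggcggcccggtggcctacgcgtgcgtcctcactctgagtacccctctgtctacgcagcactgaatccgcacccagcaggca

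Theta, kappa, omega, zeta and microsomal genes overlapped between the groups, with the exception of Gstt3. Gstt3 had 24.9, 31.4 and 30.5 CPM in KO livers, against 33.3, 39.1 and 57.5 CPM in WT livers (log2 −0.58, SE 0.25, edgeR adjusted p = 0.578). Gstt1, which acts on small halogenated compounds, and Gstt2, its neighbour, had log2 changes of 0.32 (SE 0.24) and 0.22 (SE 0.31). On the same scale Gstk1, a mitochondrial and peroxisomal transferase, was at 0.06 (SE 0.28), Gsto1, which reduces dehydroascorbate, at −0.44 (SE 0.28), and Gstz1, the maleylacetoacetate isomerase of tyrosine breakdown, at −0.12 (SE 0.23). Mgst1 had 3147, 3403 and 4064 CPM in KO livers, against 3752, 3800 and 3220 CPM in WT livers (log2 −0.02, SE 0.25). The edgeR adjusted p of these 6 genes ran from 0.666 to 0.981.

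Mgst3, a membrane transferase of the family that also makes cysteinyl leukotrienes, varied more than Mgst1. It had 83.4, 32.1 and 72.8 CPM in KO livers, against 10.8, 42.9 and 27.7 CPM in WT livers (log2 1.21, SE 0.52, edgeR adjusted p = 0.585). KO 5 lay inside the WT range. Adding the log2 mitochondrial share to the model left a log2 change of 0.37. Mgst2, a relative with leukotriene synthase activity, had 1, 3 and 2 counts in KO livers and 0, 3 and 2 counts in WT livers and was not tested.

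**Figure D3:**
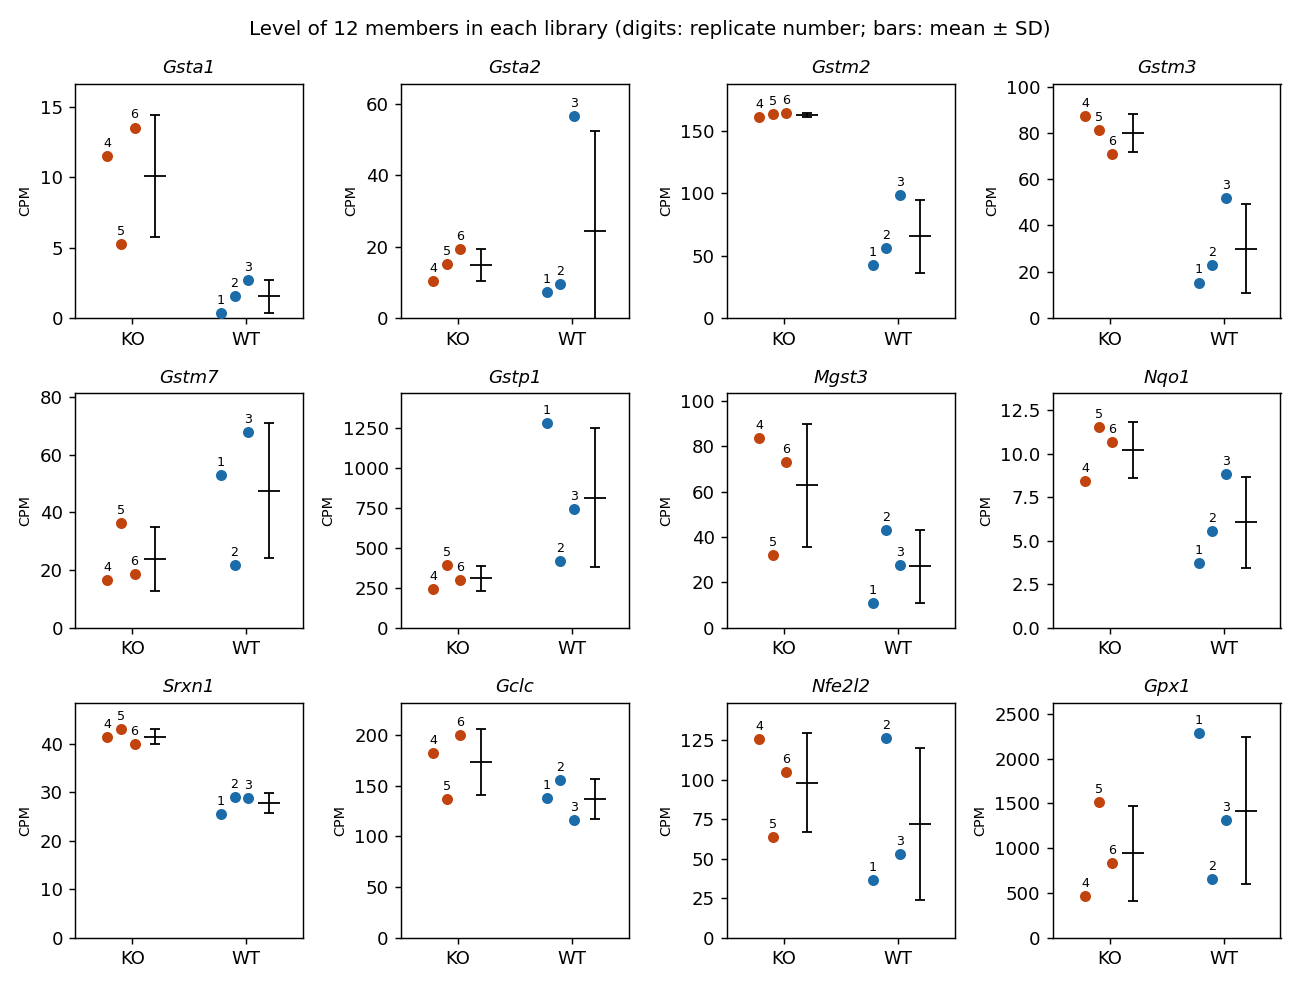
CPM of 12 members in each library, KO left of WT, on linear axes from 0; digits give the replicate number, and bars give the mean ± SD of 3 libraries (the lower end for Gsta2 in WT livers is below 0 and not drawn). Gstm2 lies between 161 and 164 CPM in the KO libraries and at most at 98.3 CPM in the WT libraries, while Gpx1 ranges from 468 to 1515 CPM in the KO libraries and from 657 to 2285 CPM in the WT libraries.

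The NRF2 targets outside the transferases had fitted values of both signs, with 4 above 0 and 3 below among the 7 tested. Srxn1, the sulfiredoxin that repairs overoxidised peroxiredoxins (ENSMUSG00000032802, chromosome 2, 152105516 to 152111376), had 41.4, 43 and 39.9 CPM in KO livers, against 25.4, 29.1 and 28.8 CPM in WT livers. The groups lay well apart and each was even, so that a log2 change of 0.58 had a small error (SE 0.17, unadjusted p = 0.0111, edgeR adjusted p = 0.435). Its log2 change stayed between 0.50 and 0.62 over all alternatives. Srxn1 was the only one of the 13 tested members outside the transferases with an unadjusted p under 0.05.

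Nqo1, a quinone reductase and a common readout of NRF2, was scarce. It had 8.45, 11.5 and 10.7 CPM in KO livers, against 3.74, 5.57 and 8.85 CPM in WT livers, with WT 3 above KO 4 (log2 0.75, SE 0.34, edgeR adjusted p = 0.604). Gclc and Gclm encode the catalytic and modifier subunits of the enzyme that begins glutathione synthesis. Gclc had 183, 137 and 201 CPM in KO livers, against 138, 156 and 116 CPM in WT livers (log2 0.34, SE 0.23). Gclm had 147, 186 and 174 CPM in KO livers, against 210, 169 and 190 CPM in WT livers (log2 −0.17, SE 0.21). The subunits had fitted values of opposite sign, and the groups overlapped for both (edgeR adjusted p = 0.676 for Gclc and 0.795 for Gclm). Gclc passed the test with limma-voom and sample quality weights (adjusted p = 0.0174), a setting that called 4063 of all 13693 tested genes. Over all its alternatives the adjusted p ran from 0.0174 to 1.

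Hmox1, haem oxygenase, had 6.9, 7.41 and 6.57 CPM in KO livers, against 5.86, 5.44 and 9 CPM in WT livers (log2 0.04, SE 0.27). Txnrd1, the cytosolic thioredoxin reductase, and Gsr, glutathione reductase, had log2 changes of −0.29 (SE 0.26) and −0.19 (SE 0.24), with overlapping groups. Slc7a11, the cystine importer, had 0, 0 and 3 counts in KO livers and 0 counts in each WT liver. A count of 0 allows up to 3 counts, which is 0.139 to 0.273 CPM depending on the library, and the gene was not tested. Over the 8 targets the summed level was 490, 537 and 538 CPM in KO livers and 557, 477 and 498 CPM in WT livers, with overlapping groups.

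The groups overlapped for Nfe2l2 and for Keap1. Nfe2l2 had 126, 64 and 105 CPM in KO livers, against 36.4, 126 and 53.1 CPM in WT livers (log2 0.45, SE 0.47, edgeR adjusted p = 0.755). It was highest in KO 4, KO 6 and WT 2. The log2 change was 1.13 without WT 2, 0.13 without WT 1 and −0.16 with the mitochondrial share in the model. Keap1 had 42.3, 37.9 and 37.8 CPM in KO livers, against 32.7, 33.6 and 38.1 CPM in WT livers (log2 0.18, SE 0.18). NRF2 is controlled mainly at the level of its protein, which these data do not measure.

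The peroxide and superoxide enzymes varied chiefly within the groups. Gpx1, the selenium-dependent glutathione peroxidase of the cytosol, had 468, 1515 and 839 CPM in KO livers, against 2285, 657 and 1311 CPM in WT livers (log2 −0.59, SE 0.55). Prdx1, a cytosolic peroxiredoxin, had 271, 661 and 405 CPM in KO livers, against 885, 404 and 838 CPM in WT livers (log2 −0.67, SE 0.42). Both were lowest in KO 4, and low in KO 6 and WT 2. Sod1, the cytosolic superoxide dismutase, had the other order, at 1617, 1081 and 1717 CPM in KO livers and 1059, 1487 and 1166 CPM in WT livers (log2 0.25, SE 0.28). Sod2, its mitochondrial counterpart, was at −0.10 (SE 0.24).

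KO 4, KO 6 and WT 2 were the 3 libraries with the highest mitochondrial share, and several members were lowest or highest in the same libraries. Gsta3, Gsta4, Gstm7, Gsto1, Gclm, Txnrd1, Gsr, Gpx1 and Prdx1 had their 3 lowest values there, and Gstt1, Gstt2, Mgst3, Gclc, Nfe2l2 and Sod1 their 3 highest. These 9 and 6 genes are 26.5% and 17.6% of the 34 members, and 21.3% and 19.7% of all tested genes had these orders, shares near those of the members. In a model that also held the log2 mitochondrial share, Gpx1 was at 0.31, Prdx1 at −0.05 and Gsta3 at 0.08, while Gstp1 was at −0.83, Gstm2 at 1.27 and Gstm3 at 1.34. Whether the mitochondrial share has a part in these differences was not tested beyond this fit.

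**Figure D4:**
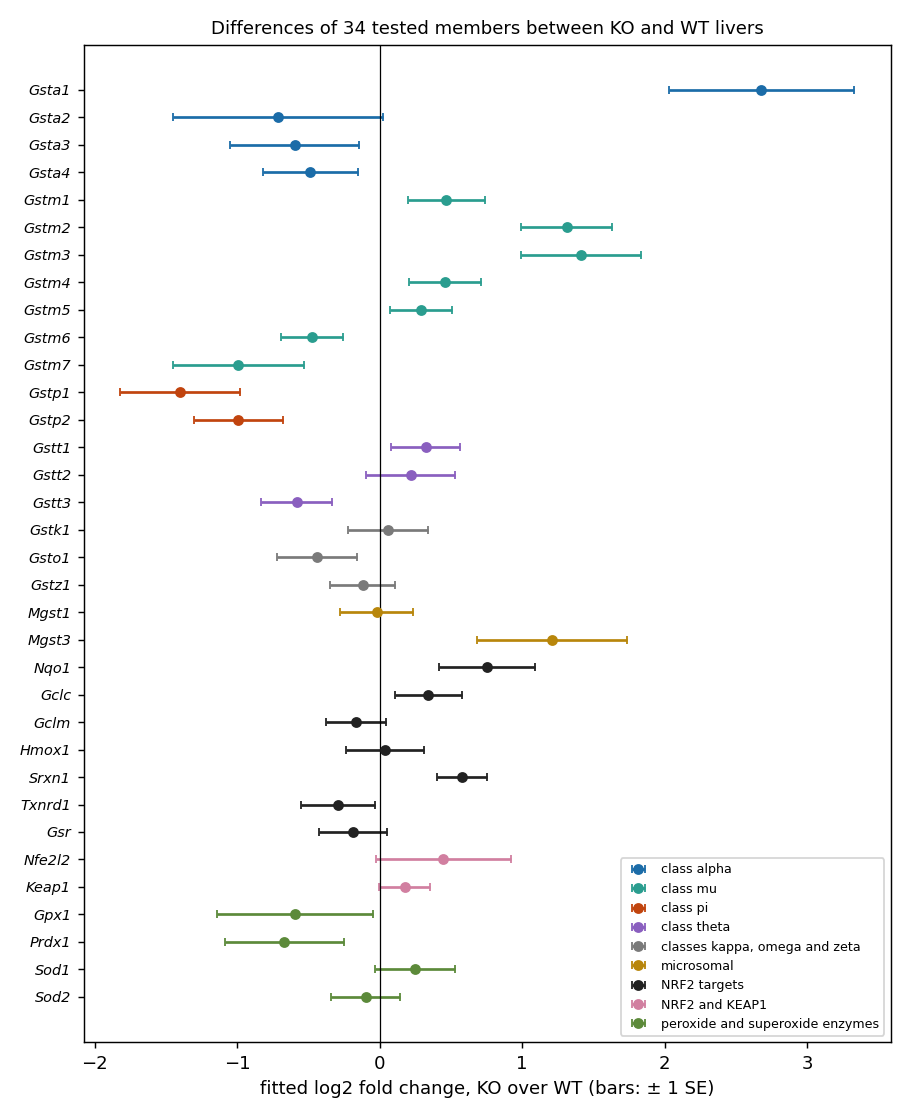
Fitted log2 fold change of KO over WT for the 34 tested members, coloured by class, with bars of 1 SE on each side. Gsta1 (2.68), Gstm3 (1.41) and Gstm2 (1.31) are furthest to the right and Gstp1 (−1.40) is furthest to the left, while the NRF2 targets lie between −0.29 and 0.75.

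A core of the antioxidant response element was searched for in the promoters, as TGACNNNGC on both strands of the 300-base windows. Promoters were listed for 31 members. Gsta4, Gstt2, Gclc, Hmox1 and Gsr had none listed. A match was found for 4 of 20 transferases (20%) and for 6 of 11 other members (54.5%), against 14% of all 27025 genes listed. Some genes have several listed promoters. Counted by promoter, a match stood in 4 of 28 for transferases (14.3%) and 6 of 13 for other members (46.2%), against 12.4% of all promoters. The windows below, from RefSeq on GRCm38.p6, show the 6 matches outside the transferases with the matching letters in capitals, read on the gene's strand.
Gclm (chr3:122245407-122245447, plus strand): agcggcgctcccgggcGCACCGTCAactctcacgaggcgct
Srxn1 (chr2:152105536-152105573, plus strand): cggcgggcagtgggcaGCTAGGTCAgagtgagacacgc
Txnrd1 (chr10:82859098-82859138, plus strand): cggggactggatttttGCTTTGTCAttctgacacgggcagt
Nfe2l2 (chr2:75704879-75704913, minus strand): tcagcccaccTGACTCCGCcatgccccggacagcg
Prdx1 (chr4:116685450-116685490, plus strand): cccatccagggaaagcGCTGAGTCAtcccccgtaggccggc
Sod1 (chr16:90220690-90220730, plus strand): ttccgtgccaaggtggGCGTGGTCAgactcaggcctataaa

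Among the transferases the matches were in Gsta3, Gstm5, Gstm7 and Mgst1, of which none had an unadjusted p under 0.05. Of the 7 members with an unadjusted p under 0.05, Srxn1 alone held a match to TGACNNNGC, after its gene start rather than before it. TGAGTCAGC, which has the form that was not searched, stands before the gene start in Gstp1, Gstp2 and Srxn1. The lack of a match to TGACNNNGC therefore does not show that a member has no element in its window. How many other members and other promoters hold that form was not counted, so it was not set against the differences between the groups. The Prdx1 match also holds TGACTCA, the site of AP-1 factors, on the minus strand. TGAGTCAGC in Gstp1, Gstp2 and Srxn1 holds the same site, since TGAGTCA is the reverse complement of TGACTCA. This site is thus not particular to Prdx1, and the windows of all members were not searched for it. A match is a run of letters and not a shown site, and elements of these genes may lie outside the window.

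Other NRF2 target genes, listed apart from the members, were mostly fitted higher in KO livers. Of 27 listed genes 26 were tested, 21 were fitted higher and 5 lower, and the median log2 change was 0.26. Among all 13693 tested genes 6730 were fitted higher. In the list, an unadjusted p under 0.05 was reached by 7, all higher, which is 26.9% beside 5.37% of all tested genes as higher. Of the listed genes 0 passed the adjusted test. The list was chosen with earlier results of these data known, so its larger share is a description and not independent support. Tkt, transketolase of the pentose phosphate pathway, had 280, 194 and 216 CPM in KO livers, against 114, 154 and 106 CPM in WT livers (log2 0.89, SE 0.25, edgeR adjusted p = 0.400). Entpd5, a nucleotide phosphatase of the endoplasmic reticulum, averaged 318 ± 40.1 CPM in KO and 188 ± 22.3 CPM in WT livers (SD, n = 3 each; log2 0.76, SE 0.22). Ephx1, microsomal epoxide hydrolase, averaged 456 ± 101 CPM in KO and 257 ± 41.6 CPM in WT livers (SD, n = 3 each; log2 0.83, SE 0.26). The 7 became 2 without WT 3, 4 without WT 1 and 3 without both WT 1 and KO 4, while 20 to 23 genes were fitted higher whichever library was left out.

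Other glutathione genes were mixed. Of 20 tested genes of glutathione synthesis, recycling and peroxidases, 9 were fitted higher and 11 lower, with 3 higher and 1 lower at an unadjusted p under 0.05, together 20% beside 8.58% of all tested genes. Gpx3, the secreted peroxidase, had 26, 23.4 and 21.8 CPM in KO livers, against 6.04, 16.9 and 10.5 CPM in WT livers (log2 1.09, SE 0.35). Ggct, which splits gamma-glutamyl amino acids, averaged 13.8 ± 0.233 CPM in KO and 9.14 ± 1.12 CPM in WT livers (SD, n = 3 each). Hagh, a glyoxalase, had 162, 235 and 211 CPM in KO livers, against 409, 281 and 357 CPM in WT livers (log2 −0.78, SE 0.25). The groups of these 3 genes did not overlap, at edgeR adjusted p from 0.448 to 0.491.

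Of 12 partners and regulators of NRF2, 3 were fitted higher and 9 lower, with 1 higher and 1 lower at an unadjusted p under 0.05, together 16.7% beside 8.58% of all tested genes. Bach1, a repressor that competes with NRF2 at its DNA sites, had 22.8, 21.5 and 26.5 CPM in KO livers, against 55.1, 51.2 and 35.7 CPM in WT livers. The groups did not overlap (log2 −1.0, SE 0.23, unadjusted p = 0.00233, edgeR adjusted p = 0.370). Sesn2, a stress-induced sestrin, had 12.3, 9.22 and 26.7 CPM in KO livers, against 5.73, 9.16 and 7.34 CPM in WT livers (log2 1.12, SE 0.41), and Nfe2l1, a relative of NRF2, had a log2 change of 0.42 (SE 0.22). Of 15 thioredoxin, peroxiredoxin, catalase and dismutase genes 4 were fitted higher and 11 lower, and 0 had an unadjusted p under 0.05, beside 8.58% of all tested genes, a share at which a count of 0 among 15 says little. There Prdx4, Msrb1 and Cat had log2 changes of −0.33, −0.67 and −0.38.

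Of 8 other tested genes of the transferase families, 5 were fitted higher and 3 lower, and 1 had an unadjusted p under 0.05 (12.5%, beside 8.58% of all tested genes). That gene was Ltc4s, leukotriene C4 synthase, which is below 1 CPM on average and is named after its values were seen. It had 23, 14 and 14 counts in KO livers and 4, 3 and 2 counts in WT livers, without overlap (log2 2.71, SE 0.69, unadjusted p = 0.00449, edgeR adjusted p = 0.400). Gm3776 had a log2 change of 1.67 (SE 0.85), Alox5ap, the helper protein of leukotriene synthesis, of 0.88 (SE 0.46), and Ptges2, a prostaglandin synthase, of −0.38 (SE 0.24). Ltc4s and Alox5ap are genes of myeloid cells, whose 12 markers summed to 257 to 330 CPM in KO and 145 to 196 CPM in WT livers; their part in these differences was not tested.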

How the data were processed

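The submitters' processing notes name the mm10 build, featureCounts 1.5.0-p3 and HISAT2 2.0.5, and also DESeq2 1.16.1, without saying what each was used for; annotation and strand setting are not stated there. The authors deposited raw read counts per gene and FPKM values for the 6 libraries. FPKM was used to compare levels between genes, for the class shares and ratios within a library, and in alternative fits. The members and gene lists were chosen with earlier results of these data known. Of each other gene list the 3 genes with the smallest p and a mean of at least 1 CPM are named. Ltc4s and Gstp3 are named in addition.

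Counts were tested on 3 KO against 3 WT libraries with edgeR 4.0.16 in R 4.3.3: low counts filtered with filterByExpr, TMM scaling, a quasi-likelihood fit with genotype alone, and Benjamini-Hochberg adjustment over all 13693 tested genes at 0.05. CPM values use TMM library sizes. The biological coefficient of variation was 34.7%. No 2 libraries agreed within counting noise. Single values had an exact two-sided permutation test over 20 splits, whose smallest p is 0.1. Alternatives used DESeq2 1.42.0, limma 3.58.1 and sva 3.50.0, other scalings and filters, FPKM with pseudocounts of 1 and 0.1, a mitochondrial covariate and libraries left out; sums over close copies were added after seeing the data. Shared 50-base stretches came from GENCODE vM21 transcripts, and promoters from RefSeq tables, aligned globally with Biopython 1.88.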

Additional observations from a re-analysis of the deposited data

How the results depend on the processing

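No paired analysis was possible because the labels number the libraries 1 to 6 with no number shared between KO and WT. The count of genes called, 2 in edgeR, was 169 with DESeq2, 1 with limma-voom, 4063 with limma-voom and sample quality weights, 1 with library size alone, 61 with no filter on low counts, 1 with the mitochondrial covariate, 9 with 1 surrogate variable, 0 without WT 1 and KO 4 together, and 0 to 1 with a single library left out. Members called, 0 in edgeR, were 2 with DESeq2, 17 with quality weights (7 higher and 10 lower) and 1 with no filter on low counts (Gsta1), and 0 under the other alternatives. Members with an unadjusted p under 0.05, 7 in edgeR, were 23 with quality weights, 3 without WT 1 and KO 4 together, and 6 to 12 with a single library left out, the 12 without WT 2. The cause of these shifts was not tested.

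Of 682 recomputed log2 changes of members, 41 changed sign, and 21 of 34 members never did. With the mitochondrial covariate the new values were 0.081 for Gsta3, −0.28 for Gstt2, 0.0041 for Gclm, 0.045 for Txnrd1, 0.11 for Gsr, −0.16 for Nfe2l2, 0.31 for Gpx1, −0.10 for Sod1 and 0.16 for Sod2. With 1 surrogate variable they were −0.21 for Gstt2, 0.017 for Txnrd1, 0.087 for Gsr, −0.084 for Nfe2l2, 0.24 for Gpx1, −0.040 for Sod1 and 0.12 for Sod2. Without WT 1 and KO 4 together they were −0.069 for Gstt2, 0.090 for Mgst1, 0.0064 for Gclm, −0.049 for Hmox1, 0.047 for Gsr, −0.086 for Nfe2l2, 0.26 for Gpx1 and 0.21 for Sod2. Quality weights gave −0.10 for Gstk1, 0.19 for Mgst1 and −0.34 for Hmox1, and upper quartile scaling gave 0.028 for Mgst1. With a single library left out, Gsta2 ran from −1.15 to 0.81, Gstk1 from −0.10 to 0.25, Mgst1 from −0.14 to 0.056, Hmox1 from −0.10 to 0.27 and Sod2 from −0.20 to 0.070. With 3 libraries a group and this spread, small differences were not detectable.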
